A study of Mus musculus with 12 samples.

Results

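The comparison described here sets 4 libraries of primary dorsal root ganglion (DRG) cultures transfected with a control antisense oligonucleotide (ASO) against 4 libraries of untransfected cultures, 8 of the series' 12 libraries, and covers all genes of the count table. All cultures came from wild-type C57/Bl6 mice. Each replicate number is a separate culture of whole ganglia from 1 mouse, divided among the control ASO at 50 nM, a mix of ASOs against GI-SINE RNAs (transcripts of B2 short interspersed repeats) at 50 nM, and no transfection, so each mouse gives its own control. The control ASO's sequence and the transfection reagent are not known here, and no group was transfected without an ASO. What the procedure did and what this ASO did therefore cannot be told apart.

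A DRG holds the cell bodies of the sensory neurons of the body wall, limbs and viscera. Around each of them lie satellite glia, along their axons Schwann cells, and between them fibroblasts, vessels and resident macrophages. Dissociated ganglia keep all of these cells, and in culture the non-neuronal ones divide, spread and lay down matrix. ASOs are single strands of modified nucleotides that enter a cell by endocytosis or in a lipid carrier, can recruit RNase H to a paired RNA, and in some cells set off receptors that read foreign nucleic acid as a sign of infection. Those receptors drive interferon, which switches on genes of antiviral defence and antigen presentation.

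Libraries held 14864622 to 22704267 counts with the control ASO and 16971091 to 22668448 without transfection. Ribosomal RNA loci took 16.4% to 18.6% and 15.7% to 18.4% of the counts, and mitochondrial genes 0.433% to 0.524% and 0.503% to 0.713%. The tissue label held in both groups: the 20 pan-neuronal genes summed to 8713 to 11360 CPM (counts scaled to a common library total) in untransfected and 9822 to 11660 CPM in control ASO cultures. On a principal component analysis of the 8 libraries, the first component (50.4% of the variance) ran from -43.9 to -25.4 in untransfected and from 19.3 to 41.1 in control ASO libraries. The second (19.6%) set both libraries of mouse 4 apart, at -29.4 and -40, from the other 6 at 3.49 to 16.6.

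Transfection with the control ASO came with large falls in a limited set of genes and with many smaller falls and rises. Of 16831 genes tested, 2306 were lower and 1775 higher at an adjusted p under 0.05 (edgeR quasi-likelihood test with the mouse as a term, 2-sided, Benjamini-Hochberg over all genes), which is 13.7% lower and 10.5% higher. The counts of each gene list below are to be read beside these shares. The asymmetry was larger among strong changes: 621 genes (3.69%) were lower by at least 2-fold and 140 (0.832%) higher. Of the 4081 called genes, 4021 moved the same way in all 4 mice, and in 2878 the 4 values of 1 group lay wholly outside those of the other. Over all tested genes, called or not, the groups did not overlap in 3933 (23.4%). The median log2 fold change of all tested genes was 0.03. Scaled by library size only, 55.4% of the called genes were higher against 43.5% here, and 56.3% were higher once trends with GC content and transcript length had been taken out of each library, so the balance of small rises and falls depends on scaling. Leaving out all libraries of mouse 4, its mix library included, gave 1507 higher and 2439 lower genes. Without mouse 1, 2 or 3 the higher genes numbered 1009, 998 and 752, while lower genes numbered 1764, 1750 and 1788. Counts over bulk RNA cannot tell fewer cells of a type from less RNA per cell, and this holds for every result that follows.

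**Figure D1:**
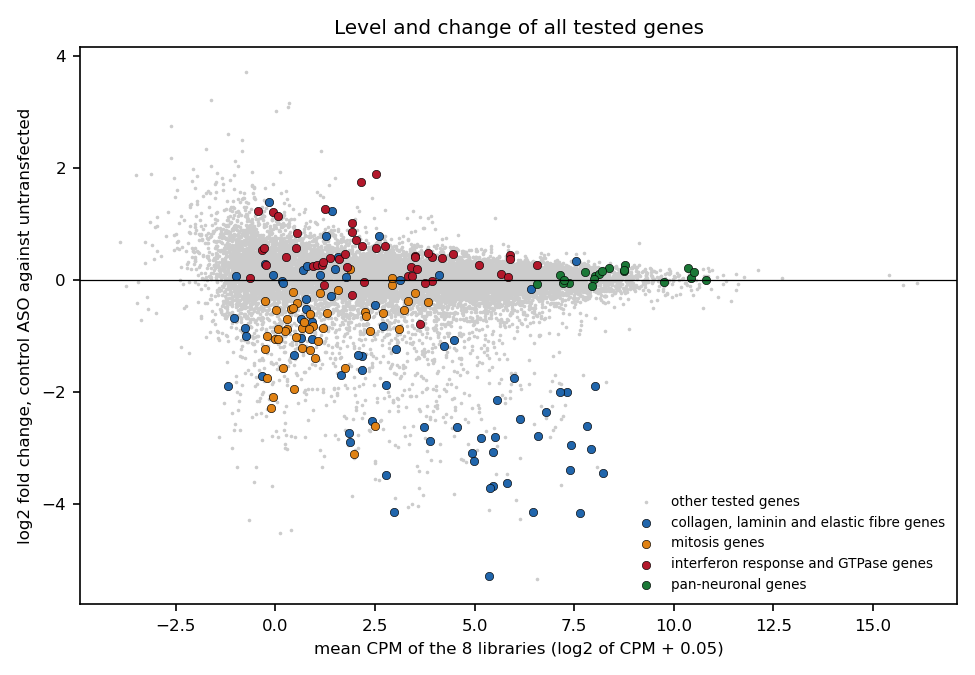
Each point is 1 of the 16831 tested genes, by its mean level over the 8 libraries (x axis, log2 of CPM + 0.05) and its log2 fold change, control ASO against untransfected (y axis). Collagen, laminin and elastic fibre genes (blue) reach -5.29, pan-neuronal genes (green) lie near 0, and interferon response genes (red) reach 1.88.

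Genes of the extracellular matrix fell strongly. Of 36 collagen chain genes that passed the filter on low counts, out of 43 listed, 19 were lower, each by at least 2-fold, and 4 were higher (median log2 fold change -1.49). Col5a2, a chain of the type V collagen that sets the width of collagen fibrils (ENSMUSG00000026042, GRCm38 chromosome 1, 45374321 to 45503282), stood at 360, 301, 292 and 573 CPM in untransfected cultures of mice 1 to 4 and at 15.3, 25.0, 11.6 and 37.5 CPM with the control ASO. The groups did not overlap, and each mouse lost most of its message. Its log2 fold change was -4.16 ± 0.29 (SE of the edgeR fit, adjusted p = 0.000105). The chain genes of the fibrillar type I and III collagens, Col1a2 (-2.96 ± 0.24) and Col3a1 (-3.25 ± 0.25), of the basement membrane's type IV, Col4a1 (-2.62 ± 0.33), and of the microfibrillar type VI, Col6a3 (-2.64 ± 0.14), fell with it. Col6a2, whose product assembles with Col6a1 and Col6a3 chains, was not called (-0.45 ± 0.16, adjusted p = 0.0512, and 0.00614 without mouse 4), while Col6a1 fell by 1.36 on the log2 scale. The other 4 called collagens were higher: Col5a3 (0.34 ± 0.06, from 164 ± 57.3 to 211 ± 84.1 CPM; SD, n = 4), Col7a1 (0.78 ± 0.13), Col20a1 (1.23 ± 0.20) and Col9a3 (1.40 ± 0.31). The type V collagen genes thus split, with Col5a1 at -3.73 ± 0.19, Col5a2 at -4.16 ± 0.29 and Col5a3 higher. Col4a1 (adjusted p = 0.0591) and Col5a3 (0.636) were not called without the mouse as a term.

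Basement membranes, the sheets that wrap Schwann cells, satellite glia and vessels, are built on laminins, trimers of an alpha, a beta and a gamma chain. Of 19 laminin and basement membrane genes tested 14 were lower, each by at least 2-fold, and none higher (median -1.89). Lama2, the alpha chain of the laminin that coats Schwann cells and muscle (ENSMUSG00000019899, chromosome 10, 26980036 to 27619758), stood at 64.8, 57.0, 59.0 and 139 CPM without transfection. With the control ASO it stood at 1.69, 2.36, 1.17 and 2.47 CPM. The groups did not overlap and the log2 fold change was -5.29 ± 0.15 (adjusted p = 3.21e-12). Its partners Lamb2 (-1.07 ± 0.08) and Lamc1 (-2.01 ± 0.13), the proteoglycan agrin, Agrn (-2.15 ± 0.08), and perlecan, Hspg2 (-3.46 ± 0.44), fell too. Members not called included Lama1, Lama3, Lama5 and Lamb3, the last 3 of them chains of epithelial and vascular laminins. Lama5 lay at 16.6 ± 2.497 and 17.6 ± 3.22 CPM.

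**Figure D2:**
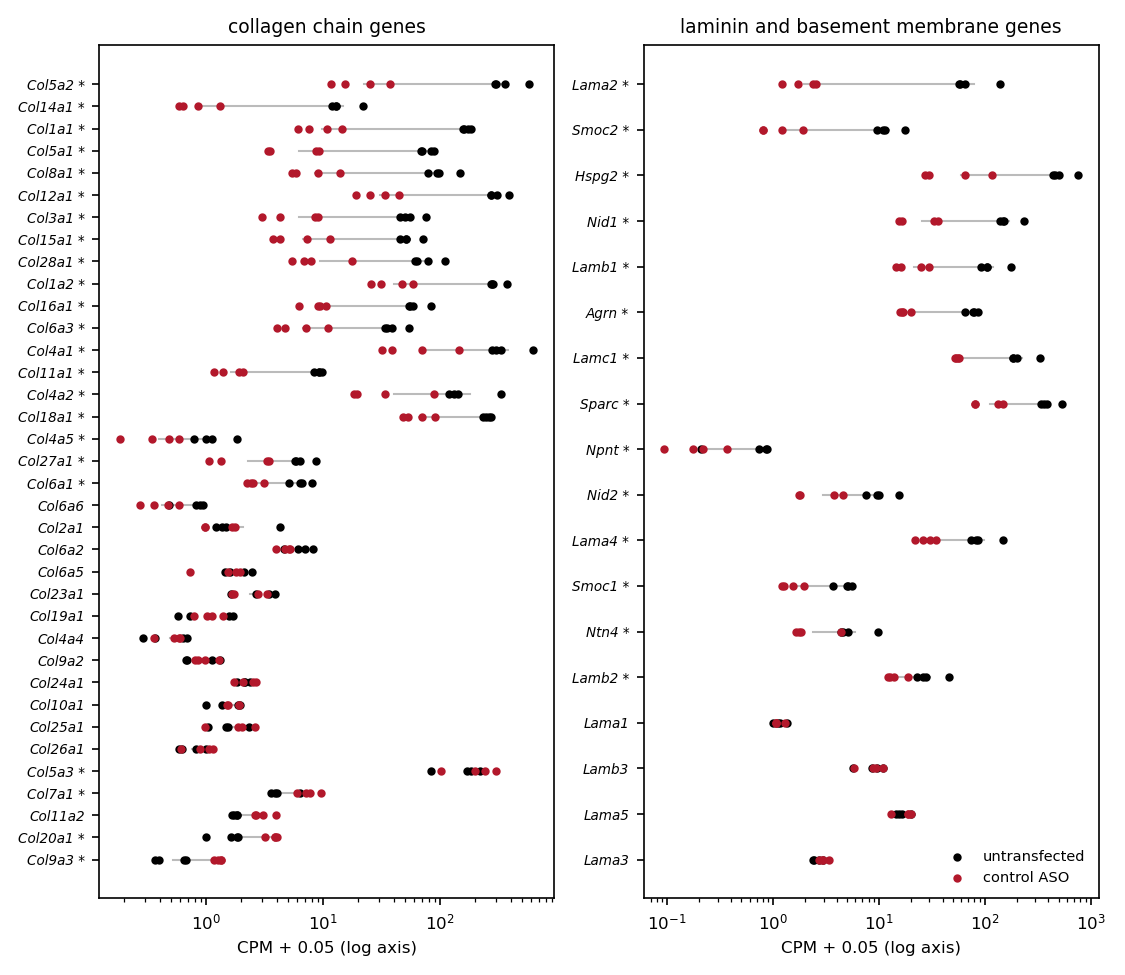
CPM + 0.05 on a log axis for collagen chain genes (left) and laminin or basement membrane genes (right) in the 4 untransfected (black) and 4 control ASO (red) libraries; grey lines join the means and asterisks mark called genes. Of the full lists, 19 collagens and 14 basement membrane genes were called lower, and the panels may leave out some list members. Lama1, Lama3, Lama5 and Lamb3 overlap.

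Of 19 elastic fibre and microfibril genes 15 were lower and none higher (median -1.18). Fbn1, the fibrillin that forms the microfibrils on which elastin is laid (ENSMUSG00000027204, chromosome 2, 125300594 to 125507993), went from 61.0, 86.3, 74.6 and 98.5 CPM to 10.5, 10.3, 10.02 and 14.4 CPM in mice 1 to 4. The control ASO values were close to each other and far below the lowest untransfected value (-2.82 ± 0.09, adjusted p = 2.81e-13). Ltbp2, a fibrillin-binding protein, fell by 3.69 ± 0.19 and Fbln2, a fibulin of basement membranes, by 3.02 ± 0.33 on the log2 scale. Of 35 matrix glycoprotein and proteoglycan genes 20 were lower and 1 was higher (median -0.64; none higher without mouse 1 or mouse 2), with the glypican Gpc6 at -3.00 ± 0.15 and the syndecan Sdc4 at -2.21 ± 0.13. The glypican Gpc1 (0.09 ± 0.05, adjusted p = 0.242) and the syndecan Sdc3 (-0.25 ± 0.11, adjusted p = 0.150) were not called, but Sdc3 was called, as lower, without mouse 4 and with only the 8 libraries fitted (adjusted p = 0.0191 and 4.45e-07).

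Of 44 genes for enzymes that cut, crosslink or protect matrix 29 were lower and 4 higher (median -0.85; the 4 became 2 without mouse 2 or mouse 3, and without the mouse as a term). Bmp1, which trims procollagen, fell by 1.63 ± 0.11, the crosslinker Loxl3 by 3.90 ± 0.25 and the gelatinase Mmp2 by 2.16 ± 0.17 on the log2 scale. Timp3, an inhibitor of these enzymes, fell by 1.99 ± 0.09 on that scale. Timp2 was not called (0.09 ± 0.04, adjusted p = 0.158). The 4 higher genes were Mmp3, Adamts4, Adamts15 and Mmp24, of which Mmp3, stromelysin, rose the most (1.48 ± 0.41, from 1.18 ± 0.465 to 3.30 ± 0.578 CPM). Mmp3 was no longer called without mouse 3 (adjusted p = 0.0898), nor Adamts4 without mouse 1 or 2 (highest adjusted p = 0.393) or Mmp24 without mouse 2 or 3 (highest adjusted p = 0.163). Adamts4 (adjusted p = 0.136) and Adamts15 (0.174) were not called without the mouse as a term.

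Cells grip matrix through integrins and pull on it with actin and myosin. Many genes of that machinery were lower. Of 23 integrin genes 12 were lower, 7 of them by at least 2-fold, and 4 higher, 2 of them by at least 2-fold. Their median log2 fold change was -0.51 and the highest 1.18, and the 4 became 2 without any 1 mouse. Itgav, the alpha chain of the vitronectin receptors, fell by 1.89 ± 0.08 on the log2 scale, while Itga1, a collagen receptor chain, was at -3.51 ± 0.22 and Itgb4, a laminin receptor chain, at -3.44 ± 0.17. Itga3 (-0.05 ± 0.07) and the fibronectin receptor chain Itga5 (-0.10 ± 0.08) were not called. Of 33 contractile and actin cytoskeleton genes 24 were lower and none higher (median -0.53).

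Tagln, the smooth muscle protein transgelin (ENSMUSG00000032085, chromosome 9, 45929619 to 45936058), had the largest fall by fold of all called genes. It stood at 172, 115, 145 and 300 CPM without transfection and at 1.91, 2.31, 2.29 and 17.7 CPM with the control ASO (-5.34 ± 0.48, adjusted p = 0.000396). The groups did not overlap, and the control ASO library of mouse 4 was the highest of its group. Exons of Tagln overlap Pcsk7 on the opposite strand, and the strand setting of the counting is not known here. Flna, filamin A, which ties actin to integrins, stood at 463, 420, 406 and 679 CPM and then at 115, 158, 115 and 166 CPM (-1.82 ± 0.09, adjusted p = 4.21e-09). The abundant actin gene Actb moved much less, from 3111 ± 179 to 2394 ± 130 CPM (-0.38 ± 0.05), and the tropomyosin gene Tpm1 was not called (-0.09 ± 0.05).

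Many contractile genes carry a CArG box, the site of serum response factor, in their promoters. RefSeq promoters (GRCm38.p6) were searched for it in the 250 bases before each start; it reads the same on both strands. It stood in 8 of 26 promoters of the called contractile genes (30.8%), in 1 of 13 promoters of those not called (7.69%) and in 1.47% of all 32851 promoters. These promoters belong to 21 called and 8 uncalled genes, so some genes count more than once. The search took only the exact letters CCWWWWWWGG, with W for A or T, and counted no near matches. Acta2, which was also lower, held no exact match in this stretch. It did hold ccctatatgg and ccttgtttgg, each 1 letter off the pattern. A match describes the letters alone. The promoters of Cnn2, calponin 2 (-4.12 ± 0.28), and Myl9, a myosin light chain (-3.18 ± 0.22), are shown because both genes fell and each holds 1 match, in capitals, first base 56 and 161 bases before the start (Cnn2: chr10:79988350-79988599, plus strand; Myl9: chr2:156775214-156775463, plus strand).
Cnn2: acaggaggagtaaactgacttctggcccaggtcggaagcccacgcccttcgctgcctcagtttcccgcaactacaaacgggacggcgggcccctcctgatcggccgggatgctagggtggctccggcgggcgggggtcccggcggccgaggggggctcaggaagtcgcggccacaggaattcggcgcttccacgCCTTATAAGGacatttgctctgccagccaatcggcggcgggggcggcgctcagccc
Myl9: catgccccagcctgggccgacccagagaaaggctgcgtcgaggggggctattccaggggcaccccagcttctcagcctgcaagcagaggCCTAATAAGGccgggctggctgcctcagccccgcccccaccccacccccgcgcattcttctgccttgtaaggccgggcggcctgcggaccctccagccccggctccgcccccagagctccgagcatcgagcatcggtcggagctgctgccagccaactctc

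YAP and its partner TAZ, which bind DNA through TEAD factors, carry the signal of stretched cells into the nucleus. Of 26 genes of this pathway and its targets 15 were lower and 1 higher (median -0.52; 8 lower without the mouse as a term, 2 higher without mouse 4). Yap1 itself stood at 18.0, 16.1, 15.6 and 29.7 CPM without transfection and at 5.10, 5.81, 3.68 and 9.15 CPM with the control ASO. All 4 control ASO values lay below the untransfected ones (-1.75 ± 0.12, adjusted p = 4.01e-09). Tead1 fell by 1.69 ± 0.09 and the tissue factor gene F3 by 3.24 ± 0.18 on the log2 scale, whereas the targets Amotl1 (-0.07 ± 0.05) and Asap1 (-0.03 ± 0.05) were not called.

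Secreted signals between cells fell on balance. Of 40 growth factor and neurotrophin genes 20 were lower and 5 higher (median -0.45; 13 lower without the mouse as a term, and 2 or 3 higher without any 1 mouse). Lif, a cytokine that injured Schwann cells make and that acts on neurons, stood at 51.2, 40.3, 42.4 and 60.7 CPM without transfection. It stood at 8.20, 8.67, 7.19 and 9.09 CPM with the control ASO. These groups were far apart and tight within the control ASO (-2.55 ± 0.14, adjusted p = 6.60e-08). Gdnf, which keeps nonpeptidergic nociceptors alive, fell by 2.63 ± 0.16, the platelet-derived factor Pdgfc by 2.63 ± 0.18, and the EGF receptor ligand Hbegf by 1.84 ± 0.10 on the log2 scale. Fgf2 fell by 2.96 ± 0.18 on that scale. Fgf1 (0.19 ± 0.08, adjusted p = 0.0827) and Fgf13 (0.03 ± 0.09) were not called. The 5 higher genes were Areg, Fgfbp3, Igfbp2, Mdk and Vegfa, with Fgfbp3, which binds fibroblast growth factors, at 1.52 ± 0.26 (from 1.08 ± 0.474 to 3.18 ± 1.05 CPM) and the EGF receptor ligand Areg at 0.84 ± 0.20. Of the 5, Fgfbp3 kept its call in all 14 settings tried and each of the others lost it in at least 1. Areg was no longer called without mouse 1 or 2 (highest adjusted p = 0.0692), nor Igfbp2 without mouse 1 or 3 (highest adjusted p = 0.146), Mdk without mouse 4 (adjusted p = 0.0512) or Vegfa without mouse 1, 2, 3 or 4 (highest adjusted p = 0.192). Igfbp2 (adjusted p = 0.466) and Vegfa (0.192) were not called without the mouse as a term.

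Of 36 TGF-beta and BMP pathway genes 16 were lower and 1 was higher (median -0.21; 10 lower without the mouse as a term). Tgfb1 fell by 0.93 ± 0.08 and its effector Smad3 by 1.33 ± 0.17, while Smad9, an effector of BMP signals, rose by 0.55 ± 0.06. Smad1 (-0.03 ± 0.07) was not called. Of 47 Wnt pathway genes 15 were lower and 3 higher (median -0.11; the 3 became 1 without mouse 1, and none without mouse 3 or without the mouse as a term). Daam2, a formin of the Wnt pathway, fell from 24.5 ± 3.63 to 1.67 ± 0.360 CPM (-3.85 ± 0.14) and the repressor Tcf7l1 by 2.71 ± 0.16 on the log2 scale. Ctnnb1, beta-catenin, was not called (-0.08 ± 0.05, adjusted p = 0.280).

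Schwann cell genes did not move as a block. Of 17 myelin genes 11 were lower and 1 higher (median -0.79; 7 lower without the mouse as a term). Mbp, myelin basic protein, which compacts the sheath, stood at 68.5, 60.4, 59.4 and 126 CPM without transfection and at 17.0, 21.9, 23.1 and 27.5 CPM with the control ASO. No control ASO library reached the lowest untransfected one, and the log2 fold change was -1.78 ± 0.19 (adjusted p = 0.000298). Periaxin, Prx, fell by 2.34 ± 0.12 and Gldn, which gathers sodium channels at nodes, by 1.86 ± 0.09 on the log2 scale. The membrane protein gene Cd9 was not called (0.06 ± 0.06).

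Of 21 genes of immature and repair Schwann cells 9 were lower and 3 higher (median -0.09; the 3 became 1 without mouse 3 or without the mouse as a term). Sox10, the factor that defines the Schwann and satellite lineage, stood at 85.8, 79.4, 68.1 and 119 CPM without transfection. With the control ASO it stood at 11.2, 31.2, 15.3 and 27.6 CPM, below every untransfected library (-2.11 ± 0.30, adjusted p = 0.00298). Cdh19, a cadherin of Schwann precursors, fell by 2.77 ± 0.24, Erbb2, a chain of the neuregulin receptor, by 2.18 ± 0.17, and the factor Foxd3 by 1.95 ± 0.14 on the log2 scale. L1cam (0.04 ± 0.04), Ncam1 (-0.09 ± 0.05) and S100b (0.17 ± 0.09, 72.9 ± 8.51 and 81.6 ± 0.987 CPM) were not called.

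Of 14 satellite glia markers 6 were lower and 2 higher (median -0.19; the 2 became 1 without mouse 2, 3 or 4, and counts were 0 and 4 without the mouse as a term). The potassium channel gene Kcnj10, by which these cells buffer potassium around neurons, fell from 10.5 ± 1.71 to 4.30 ± 1.49 CPM (-1.30 ± 0.13). Glul, glutamine synthetase, was not called, at 361 ± 98.4 and 357 ± 82.0 CPM, nor was Apoe (0.05 ± 0.09). Gja1, the gap junction protein connexin 43, rose by 0.58 ± 0.14 on the log2 scale with overlapping groups. The satellite glia markers summed to 1706 to 2022 CPM without transfection and to 1178 to 1513 CPM with the control ASO. These sums did not overlap, and Fbln2, which is also in the elastic fibre list, went from 426 ± 63.1 to 57.2 ± 29.8 CPM. The myelin genes summed to 1070 to 1279 CPM and then to 837.2 to 902.3 CPM, the immature Schwann genes to 2398 to 2701 and then to 2194 to 2536 CPM. Gja1 was no longer called without mouse 2 or 3 (highest adjusted p = 0.0776). Gja1 (adjusted p = 0.345) was not called without the mouse as a term.

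The markers of other cell types in the ganglion differed from list to list. Of 19 fibroblast and mesenchymal markers 10 were lower and none higher (median -0.63), and summed to 1475 to 1513 CPM without transfection and to 902.2 to 989.7 CPM with the control ASO. Several of them, among them Col1a2, Col3a1 and Itgb4, are also in the matrix or integrin lists. Col1a2 alone stood at 272 to 374 CPM without transfection, so this sum is not separate from the matrix results. The lower ones included the lineage factor Prrx1 (-2.51 ± 0.17) and the surface protease Fap (-1.96 ± 0.26). Pdgfra, the receptor that marks fibroblasts, was not called: it stood at 14.7, 15.6, 17.8 and 18.4 CPM without transfection and at 15.8, 16.7, 17.1 and 17.0 CPM with the control ASO (0.01 ± 0.08, adjusted p = 0.934). Thy1 (0.15 ± 0.07) and Ngfr (0.05 ± 0.07), which neurons and glia also express, were not called. The part of fibroblast number in the falls of matrix genes was not tested.

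Of 10 mural cell and smooth muscle markers 4 were lower and none higher (median -0.56, between -0.76 and -0.07 with 1 mouse left out), and their sum went from 508.7 to 780.2 CPM to 324.5 to 399.9 CPM. The 4 were Tagln, Acta2 (-3.42 ± 0.50), Cspg4 (-2.29 ± 0.22) and the pericyte receptor Pdgfrb (-1.20 ± 0.09). Tagln and Acta2 are also in the contractile list. By its values given above, Tagln alone makes up most of the fall of this sum in each mouse. The sum is therefore not separate from the contractile results. The pericyte markers Rgs5 (0.12 ± 0.10) and Mcam (-0.12 ± 0.09) were not called. Endothelial markers had 1 higher and 1 lower of 14 (median -0.17). These markers had no higher call without mouse 1, 2 or 3, no lower call without mouse 2, and neither without the mouse as a term. They summed to 64.39 to 85.59 CPM in the untransfected libraries of mice 1 to 3 and 272.3 CPM in that of mouse 4, and to 67.02 to 82.22 and 235.2 CPM with the control ASO, so mouse 4 was high in both conditions. Macrophage markers had 2 higher, Cd14 and Cd68, and 2 lower, Adgre1 and Lyz2, of 14 (median -0.40; no higher call held without mouse 1, 2 or 4, and no lower call without mouse 2 or 3) and summed to 29.75 to 54.22 and 29.71 to 47.79 CPM. The macrophage calls are 14.3% each way and the endothelial ones 7.14%, beside 10.5% higher and 13.7% lower over all tested genes. Of 17 other leukocyte markers 5 passed the filter, of 12 skeletal muscle and erythroid markers 2 did, and none of these was called. Of 4 oligodendrocyte and astrocyte markers tested, Olig2 (0.96 ± 0.29) and Slc1a2 (0.45 ± 0.13) were higher, both calls being lost without mouse 1 or mouse 3. Cd14 was no longer called without mouse 1, 2 or 4 (highest adjusted p = 0.154), nor Cd68 without mouse 1, 2, 3 or 4 (highest adjusted p = 0.143), Adgre1 without mouse 1, 2 or 3 (highest adjusted p = 0.0567), Lyz2 without mouse 2 or 3 (highest adjusted p = 0.155), Olig2 without mouse 1, 2 or 3 (highest adjusted p = 0.143) or Slc1a2 without mouse 1 or 3 (highest adjusted p = 0.0786). Acta2 (adjusted p = 0.106), Cd14 (0.0737), Cd68 (0.154), Adgre1 (0.104), Lyz2 (0.273) and Olig2 (0.0817) were not called without the mouse as a term.

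Many genes of dividing cells fell. Of 48 mitosis genes 31 were lower and none higher (median -0.86; 18 lower without mouse 2 and 20 without mouse 3), and of 44 DNA replication genes 20 were lower and 2 higher (median -0.27; 1 higher without mouse 1 or mouse 3). Top2a, the topoisomerase that untangles chromosomes before they part (ENSMUSG00000020914, chromosome 11, 98992943 to 99024189), stood at 5.80, 8.09, 8.35 and 5.47 CPM without transfection. It stood at 0.621, 0.758, 0.586 and 1.24 CPM with the control ASO, well apart from the other group (-3.12 ± 0.22, adjusted p = 6.62e-09). Mki67, the Ki-67 antigen, fell by 2.61 ± 0.22, and Aurkb, a kinase of the chromosomal passenger complex, by 2.29 ± 0.36 on the log2 scale. Bub1b, a gene of the spindle checkpoint, was not called and overlapped between the groups (0.04 ± 0.11). Among replication genes Rrm2, which makes deoxynucleotides, fell by 2.33 ± 0.15, Uhrf1, which copies DNA methylation, by 2.18 ± 0.18, and the helicase gene Mcm5 by 0.87 ± 0.11 on the log2 scale. Pcna was not called (-0.05 ± 0.06), nor was Mcm7 (0.30 ± 0.10, adjusted p = 0.0515, and 0.0236 without mouse 4).

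Many mitosis promoters carry CCAAT boxes, bound by NF-Y, and a CHR element with the core TTTGAA. In the 250 bases before the RefSeq start, on either strand, CCAAT stood in 20 of 26 promoters of called mitosis genes (76.9%), in 10 of 16 of those not called (62.5%) and in 33.8% of all promoters. TTTGAA stood in 13 of 26 (50%), 3 of 16 (18.8%) and 16% of them. The mitosis promoters belong to 25 called and 15 uncalled genes. The promoter of Top2a (chr11:99024190-99024439, minus strand) is shown because this gene fell the most of the list; it holds 6 CCAAT matches, in capitals, read as ATTGG where they lie on the other strand.
Top2a: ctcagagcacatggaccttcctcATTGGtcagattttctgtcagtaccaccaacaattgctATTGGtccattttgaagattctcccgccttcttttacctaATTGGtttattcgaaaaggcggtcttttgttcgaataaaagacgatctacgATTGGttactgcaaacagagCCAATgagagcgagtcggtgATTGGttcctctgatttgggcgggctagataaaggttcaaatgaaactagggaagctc

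Of 25 genes of cell cycle entry, inhibition and quiescence 6 were lower and 3 higher (median 0.02; 5 higher without mouse 4 and 1 without the mouse as a term). Ccnd1, cyclin D1, fell from 112 ± 14.8 to 30.5 ± 11.2 CPM (-1.96 ± 0.27) and its partner kinase gene Cdk6 by 2.46 ± 0.19 on the log2 scale. Cdkn1a, the p21 inhibitor, was not called: it stood at 421, 411, 419 and 461 CPM and then at 415, 414, 457 and 492 CPM (0.05 ± 0.05, adjusted p = 0.493). Cdkn1c, the p57 inhibitor, went from 0.685 ± 0.386 to 1.53 ± 0.838 CPM and was called higher (1.15 ± 0.27). Cdkn1c (adjusted p = 0.137) was not called without the mouse as a term.

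**Figure D3:**
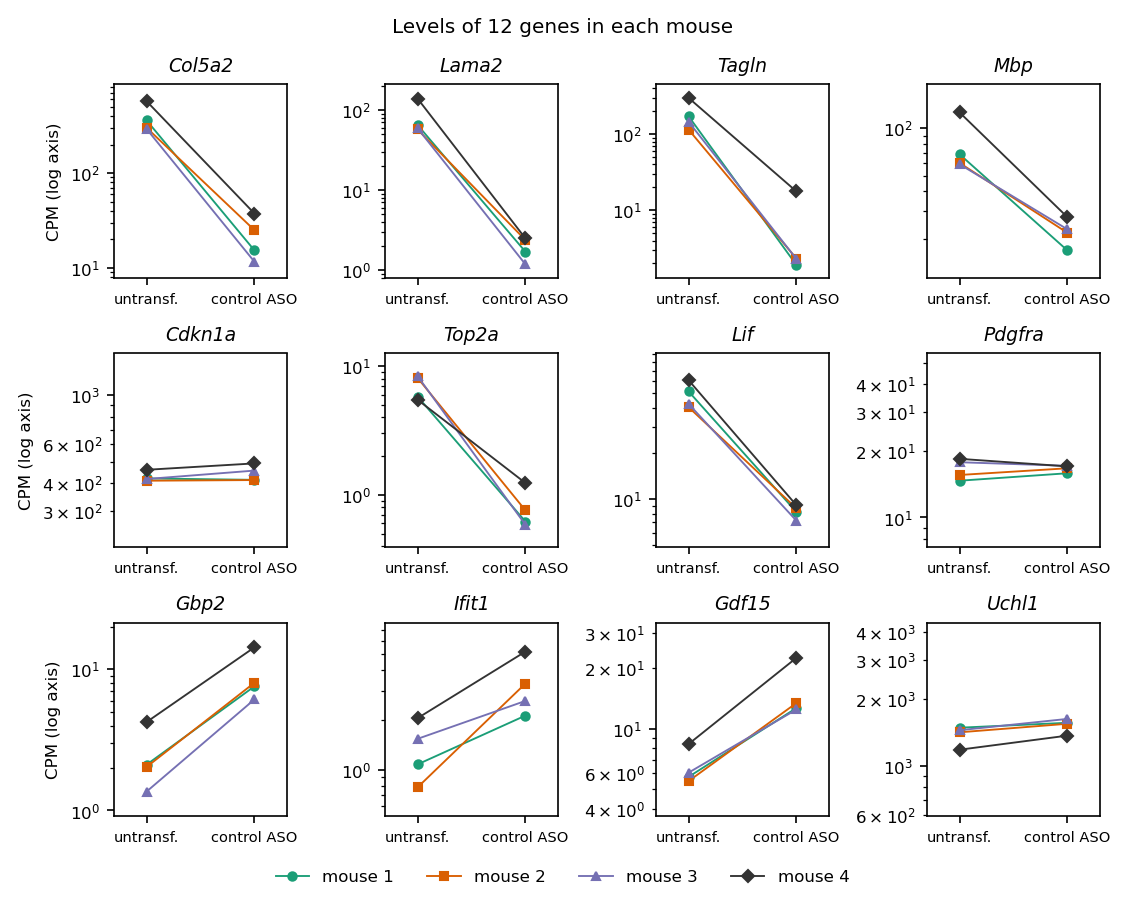
CPM on a log axis of 12 genes in the untransfected and the control ASO culture of each mouse; lines join the cultures of 1 mouse. Col5a2, Lama2, Tagln, Mbp, Top2a and Lif drop in all 4 mice, Cdkn1a and Pdgfra do not separate, Gbp2, Ifit1 and Gdf15 climb in all 4, and Uchl1 shifts slightly.

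Neuronal genes changed little. Of 20 pan-neuronal genes 6 were higher and none lower (median 0.08; 2 higher without mouse 1 or mouse 2, 3 without mouse 3, none without the mouse as a term, and 1 lower without mouse 4). Uchl1, a neuronal ubiquitin hydrolase, stood at 1483, 1414, 1445 and 1180 CPM without transfection and at 1561, 1545, 1625 and 1366 CPM with the control ASO. It was higher in each mouse although the groups overlapped (0.15 ± 0.04, adjusted p = 0.0200). The neurofilament genes Nefl (0.21 ± 0.05), Nefm (0.26 ± 0.06) and Nefh (0.22 ± 0.07) rose, while Tubb3 (-0.01 ± 0.07) and Prph (0.03 ± 0.05) were not called. Exons of Nefl and Nefm overlap on opposite strands, so these genes may share reads. Of 21 nociceptor genes 3 were higher and none lower (median 0.09; 1 without mouse 1 or mouse 3, 6 without mouse 4, and none without the mouse as a term), among them Calcb (0.23 ± 0.08) and the factor Prdm12 (0.32 ± 0.06). The higher share of 14.3% lies near the 10.5% over all tested genes. Uchl1 was no longer called without mouse 1, 2, 3 or 4 (highest adjusted p = 0.172), nor Nefh without mouse 1 or 2 (highest adjusted p = 0.156) or Calcb without mouse 1, 2 or 3 (highest adjusted p = 0.167). Uchl1 (adjusted p = 0.397), Nefl (0.238), Nefm (0.157), Nefh (0.177), Calcb (0.148) and Prdm12 (0.118) were not called without the mouse as a term.

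Of 16 mechanoreceptor and proprioceptor genes 2 were lower and none higher (median 0.10; 1 higher without mouse 1 and 2 without mouse 4). Their lower share of 12.5% lies near the 13.7% over all tested genes. The lower ones were Spp1, osteopontin (-1.49 ± 0.21), and Ntrk2, the receptor of brain-derived neurotrophic factor. Ntrk2 stood at 54.0, 41.7, 53.3 and 59.4 CPM and then at 36.8, 25.1, 33.8 and 33.9 CPM, without overlap (-0.69 ± 0.08, adjusted p = 3.25e-06). Both are also expressed outside neurons. The touch channel gene Piezo2 was not called (0.03 ± 0.05).

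Of 52 sodium, potassium and calcium channel genes 15 were higher and 4 lower (median 0.13). These counts were 6 higher without mouse 1, 8 without mouse 2, 7 without mouse 3, and 3 higher and 1 lower without the mouse as a term. The sodium channel subunit Scn2b rose by 0.38 ± 0.08, while the calcium channel Cacna1c fell by 0.48 ± 0.06. The nociceptor sodium channel Scn10a was not called (-0.02 ± 0.07). Of 34 synaptic vesicle and SNARE genes 12 were higher and 2 lower (median 0.09; 7 higher without mouse 3, 4 without the mouse as a term, and none lower without mouse 2 or mouse 3), with the vesicle protein synaptophysin, Syp, at 0.24 ± 0.05 and the glutamate transporter Slc17a7 at 0.33 ± 0.08. The 1 member higher by at least 2-fold was Baiap3, of the Munc13 family of vesicle release factors, at 0.279 ± 0.0557 and then 0.944 ± 0.168 CPM (1.68 ± 0.36). Sv2c was not called (0.00 ± 0.05). Scn2b (adjusted p = 0.358) and Syp (0.213) were not called without the mouse as a term.

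Axon guidance genes split by strength. Of 59, 18 were lower, 9 of them by at least 2-fold, and 7 higher, none by 2-fold (median -0.05; 4 higher without mouse 2, and 2 without mouse 3 or without the mouse as a term). Ntn1, the attractant and repellent netrin 1, stood at 13.5, 19.5, 14.3 and 19.0 CPM without transfection and at 1.91, 2.74, 1.76 and 3.28 CPM with the control ASO, without overlap (-2.79 ± 0.14, adjusted p = 5.39e-11). The semaphorin receptor Plxnd1 fell by 1.71 ± 0.09, Plxnb3 by 3.58 ± 0.28, the ephrin receptor Ephb2 by 2.64 ± 0.12 and the repellent Slit3 by 1.88 ± 0.15 on the log2 scale. The receptors Robo2 (-0.01 ± 0.05) and Plxnc1 (0.00 ± 0.05) were not called. Of 34 regeneration-associated genes 10 were lower and 2 higher (median -0.08; 3 lower without mouse 1, 4 without mouse 2 and 3 without the mouse as a term, and 1 higher without mouse 3 or 4). Apart from Lif the shifts were small, with Sox11 at -0.21 ± 0.06, Tuba1a at -0.17 ± 0.04 and the neuritin gene Nrn1 at 0.39 ± 0.06. Atf3, the injury marker of DRG neurons, was not called and stood at 498, 493, 500 and 520 CPM and then at 464, 469, 469 and 497 CPM (-0.08 ± 0.05, adjusted p = 0.202). Of 28 immediate early genes 8 were lower and 3 higher (median -0.02; 4 lower and 1 higher without the mouse as a term), with Fosl2 at -0.68 ± 0.06 and Egr2, which also drives myelin genes, at -1.27 ± 0.21. Sox11 was no longer called without mouse 1 or 2 (highest adjusted p = 0.0987), nor Tuba1a without mouse 1 (adjusted p = 0.0846). Sox11 (adjusted p = 0.147), Tuba1a (0.242) and Egr2 (0.270) were not called without the mouse as a term.

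**Figure D4:**
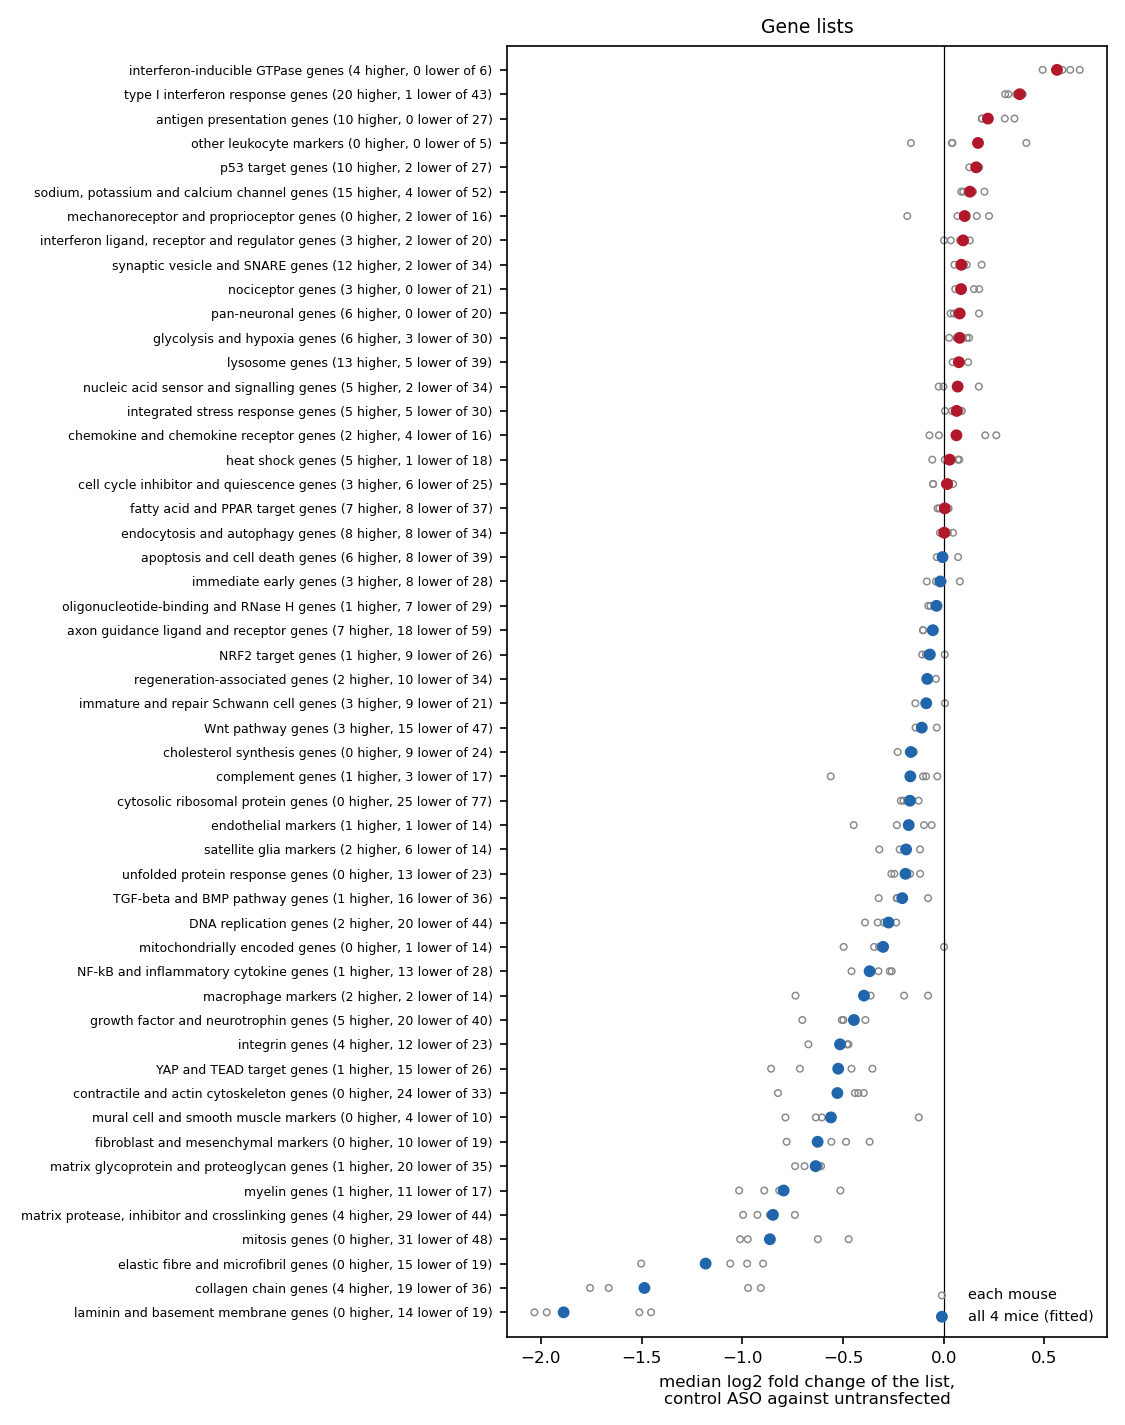
Median log2 fold change (control ASO against untransfected) of the 52 lists with at least 5 tested genes; filled points are the fitted medians, open circles the medians of each mouse's own differences, and labels give called members. Matrix, mitosis and myelin lists lie at -0.64 or below and interferon lists at 0.38 and 0.56.

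Many interferon-stimulated genes rose moderately. Of 43 type I interferon response genes tested 20 were higher and 1 lower (median 0.38), and of 6 interferon-inducible GTPase genes 4 were higher and none lower (median 0.56). The 20 became 12 without mouse 1, without mouse 2 and without the mouse as a term, which also left 2 of the 4 GTPase genes. Gbp2, a GTPase that coats intracellular microbes (ENSMUSG00000028270, chromosome 3, 142620602 to 142638008), stood at 2.11, 2.04, 1.36 and 4.23 CPM without transfection. It stood at 7.58, 8.04, 6.13 and 14.3 CPM with the control ASO, above every untransfected library (1.88 ± 0.16, adjusted p = 9.13e-08). Its exons overlap the microRNA gene Mir6381 on the opposite strand. Ifit1, which binds viral RNA without a methylated cap, stood at 1.08, 0.783, 1.54 and 2.05 CPM and then at 2.13, 3.33, 2.61 and 5.19 CPM. The highest untransfected value lay just under the lowest control ASO value (1.26 ± 0.33, adjusted p = 0.0150). Ifit1 was no longer called without mouse 2 (adjusted p = 0.0941).

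Isg15, the ubiquitin-like protein of the interferon response, rose by 0.83 ± 0.27 on the log2 scale with overlapping groups, the untransfected library of mouse 4 (1.97 CPM) lying beside its control ASO library (1.98 CPM). Tmem140 rose by 1.75 ± 0.16, Xaf1 by 0.86 ± 0.16, Irgm1 by 1.01 ± 0.20 and the ubiquitin ligase Rnf213 by 0.37 ± 0.06 on the log2 scale. Ifi27 (0.05 ± 0.06) and Trim25 (0.10 ± 0.17) were not called. Parp14, an ADP-ribosyltransferase, was the 1 lower member, at 13.7, 13.9, 11.4 and 23.9 CPM and then 7.49, 9.09, 6.29 and 13.0 CPM, lower in each mouse although the groups overlapped (-0.80 ± 0.11, adjusted p = 2.67e-05). Dtx3l, a ubiquitin ligase, rose by 0.41 ± 0.08 on that scale. Macrophage markers were at the levels given above. The tested markers of other leukocytes summed to 37.88 to 50.21 CPM without transfection and to 39.15 to 51.44 CPM with the control ASO. The part of macrophages and other leukocytes in the interferon genes was not tested. Isg15 was no longer called without mouse 1, 2 or 3 (highest adjusted p = 0.204). Isg15 (adjusted p = 0.240), Irgm1 (0.0767), Parp14 (0.0890) and Dtx3l (0.0607) were not called without the mouse as a term.

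**Figure D5:**
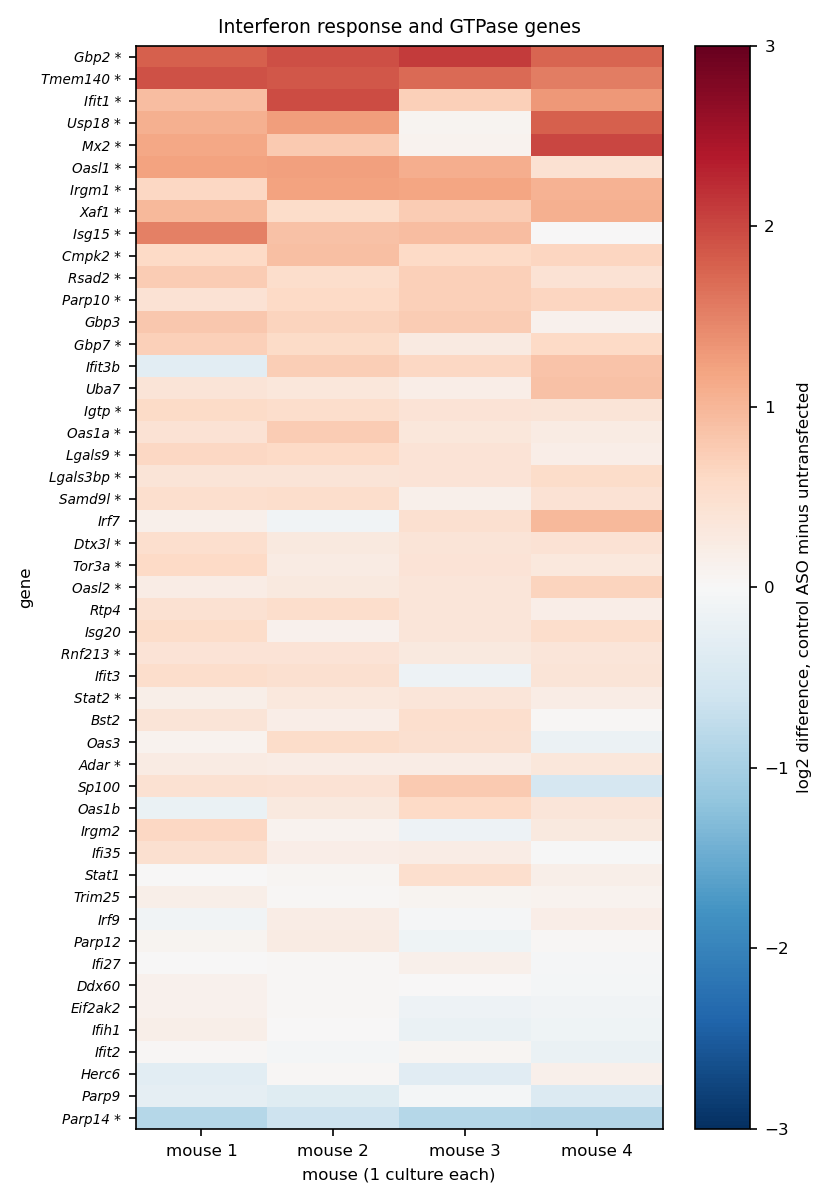
Log2 difference (control ASO minus untransfected) in each of the 4 mice for the 49 tested interferon response and GTPase genes, ordered by fitted fold change; asterisks mark called genes and red is higher with the control ASO. Gbp2 and Tmem140 at the top are raised in each mouse, and Parp14 at the bottom is lowered in each.

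The factors that carry interferon's signal bind the element GAAANNGAA, whose core repeats in most strong interferon promoters. In the 250 bases before the RefSeq start, on either strand and with overlapping matches counted, it stood in 12 of 22 promoters of the called genes of these 2 lists (54.5%), in 9 of 25 of those not called (36%) and in 7.13% of all promoters. The promoters of these lists belong to 20 called and 19 uncalled genes, so some genes count more than once. The promoters of Gbp2 (chr3:142620413-142620662, plus strand), Ifit1 (chr19:34640639-34640888, plus strand) and Isg15 (chr4:156200819-156201068, minus strand) are shown because these genes rose and carry 1, 3 and 3 matches. Matches are in capitals and read as the reverse complement where they lie on the other strand. In GENCODE, Gbp2 starts upstream of the RefSeq start, so its match, 58 bases before that start, lies within the GENCODE gene.
Gbp2: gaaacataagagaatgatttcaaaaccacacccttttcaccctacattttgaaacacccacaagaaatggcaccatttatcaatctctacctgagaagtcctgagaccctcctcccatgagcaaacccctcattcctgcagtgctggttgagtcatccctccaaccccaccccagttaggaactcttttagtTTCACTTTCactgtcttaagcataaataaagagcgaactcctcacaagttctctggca
Ifit1: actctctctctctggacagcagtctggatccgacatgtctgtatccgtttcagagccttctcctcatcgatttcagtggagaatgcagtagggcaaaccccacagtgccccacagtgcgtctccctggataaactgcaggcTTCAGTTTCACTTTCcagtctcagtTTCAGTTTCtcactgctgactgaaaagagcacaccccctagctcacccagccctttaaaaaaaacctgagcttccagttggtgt
Isg15: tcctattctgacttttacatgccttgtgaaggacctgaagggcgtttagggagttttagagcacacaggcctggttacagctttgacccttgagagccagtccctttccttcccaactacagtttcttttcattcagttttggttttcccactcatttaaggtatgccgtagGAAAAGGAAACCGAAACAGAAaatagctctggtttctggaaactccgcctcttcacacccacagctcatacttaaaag

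Of 27 antigen presentation genes 10 were higher and none lower (median 0.22; 3 without the mouse as a term). Psmb8, a subunit of the immunoproteasome that cuts peptides for class I molecules, stood at 4.13, 4.49, 4.02 and 5.35 CPM without transfection and at 6.96, 7.79, 6.98 and 9.64 CPM with the control ASO. The groups did not overlap (0.80 ± 0.12, adjusted p = 6.66e-05). The lysosomal reductase Ifi30 rose by 1.11 ± 0.11, the peptide transporter Tap1 by 0.67 ± 0.12, the class I activator Nlrc5 by 0.47 ± 0.10 and B2m by 0.25 ± 0.06 on the log2 scale. The class I gene H2-D1 was not called (0.15 ± 0.07). H2-Q6 rose by 1.01 ± 0.18, but its sequence is close to H2-Q7 and reads may have been split between them. Tap1 (adjusted p = 0.207), B2m (0.0654) and H2-Q6 (0.328) were not called without the mouse as a term.

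The sensors upstream of interferon moved little. Of 34 nucleic acid sensor and signalling genes 5 were higher and 2 lower (median 0.07; 1 lower without mouse 2, without mouse 3 or without the mouse as a term, and 8 higher with the length and GC trend removed). Ddx58, the RIG-I sensor of viral RNA, rose by 0.41 ± 0.11 and Myd88, the adaptor of Toll-like receptors, by 0.45 ± 0.08 on the log2 scale. Mavs, the mitochondrial adaptor of RIG-I, fell: it stood at 4.90, 5.64, 5.21 and 7.01 CPM and then at 2.17, 2.86, 2.72 and 3.96 CPM (-0.97 ± 0.15, adjusted p = 0.000105). Of 20 interferon ligand, receptor and regulator genes 3 were higher and 2 lower (median 0.10; 1 higher without mouse 2, 1 lower without mouse 1, 2 or 3 and 4 lower without mouse 4). The shares were 15% higher and 10% lower here, 14.7% and 5.88% among the sensor genes, and 10.5% and 13.7% over all tested genes. Usp18, which ends interferon signalling, rose by 1.23 ± 0.36, and the receptor chain Ifnar2 fell by 0.52 ± 0.09 on the log2 scale. Ddx58 was no longer called without mouse 2 (adjusted p = 0.0843), nor Usp18 without mouse 1, 2 or 4 (highest adjusted p = 0.104).

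Inflammatory genes outside the interferon lists included more lower than higher genes, as did all tested genes (13.7% lower and 10.5% higher). The shares were 46.4% lower and 3.57% higher for NF-kB and cytokine genes, and 25% and 12.5% for chemokine and receptor genes. Complement genes had 17.6% lower, near the share over all tested genes, and 5.88% higher. Of 28 NF-kB and inflammatory cytokine genes 13 were lower and 1 was higher (median -0.37; 7 lower without the mouse as a term, and none higher without mouse 2 or mouse 3), with Ptgs2, cyclooxygenase 2, at -1.96 ± 0.18 and Il11 at -2.28 ± 0.26. Nfkbia was not called (0.38 ± 0.15, adjusted p = 0.100, and 0.00448 without mouse 4). Of 16 chemokine and receptor genes 4 were lower and 2 higher (median 0.06; 2 lower without mouse 2, 1 higher without mouse 3, 1 higher and 2 lower without the mouse as a term). Cxcl10, an interferon-induced chemokine, stood at 10.8, 8.04, 9.29 and 57.4 CPM without transfection and at 4.52, 3.83, 3.78 and 24.2 CPM with the control ASO. It fell in every mouse, with mouse 4 high in both conditions (-1.22 ± 0.27, adjusted p = 0.0140). Ccl2 fell by 1.40 ± 0.31 and the receptor Cxcr4 rose by 1.30 ± 0.19 on the log2 scale. Of 17 complement genes 3 were lower and 1 was higher (median -0.17; none higher without mouse 2 and 2 without mouse 4). C4b fell by 0.88 ± 0.14 on the log2 scale, but it resembles C4a closely and reads may have been split between them. C4a moved the other way: it was not called here but was called higher in 6 other settings, at 1.18 without mouse 4 (adjusted p = 0.0289). Cxcl10 was no longer called without mouse 1 (adjusted p = 0.0541). Cxcl10 (adjusted p = 0.397) and Cxcr4 (0.367) were not called without the mouse as a term.

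Genes of proteins known to bind oligonucleotides or to cut RNA paired with DNA had 7 lower and 1 higher of 29 (median -0.04; 4 lower without the mouse as a term, and none higher without mouse 1 or mouse 3). Scarb1, a lipoprotein receptor that can take up oligonucleotides, stood at 11.4, 12.4, 10.2 and 16.2 CPM and then at 2.31, 2.90, 2.29 and 3.46 CPM, the largest change of the list (-2.19 ± 0.11, adjusted p = 9.59e-11). Rnaseh1, the RNase H that ASOs recruit, was not called, at 8.05 ± 0.311 and 7.96 ± 0.720 CPM (-0.02 ± 0.11). The paraspeckle genes Pspc1 (-0.30 ± 0.08) and Sfpq (-0.22 ± 0.06) fell slightly, and Malat1 was not called (0.16 ± 0.20). Sfpq (adjusted p = 0.0571) was not called without the mouse as a term.

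Lysosome genes leaned up, with 13 of 39 higher and 5 lower (median 0.08). The 13 became 6 without mouse 1, 3 without mouse 3 and 4 without the mouse as a term, and the 5 became 3 without mouse 1, 2 or 3. Gpnmb, a glycoprotein of lysosomes and melanosomes, stood at 8.36, 11.5, 7.52 and 8.77 CPM without transfection and at 19.3, 16.9, 15.9 and 26.0 CPM with the control ASO, without overlap (1.10 ± 0.19, adjusted p = 0.00155). Neu1, a sialidase, rose by 0.60 ± 0.07, and Psap, the precursor of the saposins, by 0.14 ± 0.04, while the ceramidase Asah1 fell by 1.21 ± 0.07 on the log2 scale. Endocytosis and autophagy genes had 8 higher and 8 lower of 34 (median 0.00). The higher ones became 2, 3 and 0 without mouse 1, 2 and 3, and counts were 3 and 5 without the mouse as a term. The endocytic receptors Lrp1 (-0.59 ± 0.05) and Lrp2 (-2.07 ± 0.26) and the caveolae genes Cav1 (-0.71 ± 0.10) and Cavin1 (-0.82 ± 0.11) were among the lower ones. The autophagy receptor gene Sqstm1 rose by 0.21 ± 0.05 on the log2 scale. Psap was no longer called without mouse 1, 3 or 4 (highest adjusted p = 0.178), nor Sqstm1 without mouse 3 (adjusted p = 0.0532). Psap (adjusted p = 0.469), Cav1 (0.203) and Sqstm1 (0.203) were not called without the mouse as a term.

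Stress programmes gave mixed results. Of 27 p53 target genes 10 were higher and 2 lower (median 0.16; 5 higher without mouse 3, 1 lower without mouse 1 or mouse 2, 4 lower without mouse 4, and 4 higher without the mouse as a term). Gdf15, a secreted stress factor, stood at 5.75, 5.48, 6.04 and 8.38 CPM without transfection and at 12.7, 13.4, 12.5 and 22.6 CPM with the control ASO, without overlap (1.23 ± 0.15, adjusted p = 3.03e-05). Bbc3, the apoptosis gene PUMA, rose by 0.36 ± 0.08 and the death receptor Tnfrsf10b fell by 1.06 ± 0.15 on the log2 scale. Zmat3 was not called (0.00 ± 0.05). Apoptosis and cell death genes had 6 higher and 8 lower of 39 (median -0.01; 3 higher without mouse 3, 5 lower without mouse 1, 2 or 3, and 4 lower without the mouse as a term), with Bid at 0.93 ± 0.13, Ripk4 at 1.70 ± 0.22 and Bcl2 at -0.66 ± 0.10. Integrated stress response genes had 5 higher and 5 lower of 30 (median 0.06; 3 higher without mouse 3, 3 lower without the mouse as a term), with Ddit3 at 0.35 ± 0.07 and the cystine transporter Slc7a11 at -1.02 ± 0.09. That list had 16.7% each way, beside 10.5% higher and 13.7% lower over all tested genes. Bbc3 was no longer called without mouse 3 (adjusted p = 0.0617). Tnfrsf10b (adjusted p = 0.292) and Slc7a11 (0.138) were not called without the mouse as a term.

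Of 18 heat shock genes 5 were higher and 1 lower (median 0.03; 2, 3 and 1 higher without mouse 1, 2 and 3, and 2 without the mouse as a term). Hspa1b, an inducible HSP70, stood at 6.61, 6.99, 8.52 and 15.2 CPM without transfection. It stood at 17.6, 15.3, 17.5 and 32.1 CPM with the control ASO, higher in each mouse (1.14 ± 0.22, adjusted p = 0.00717). It is nearly identical to Hspa1a (1.11 ± 0.32), so reads could be split between them. Cryab, alpha-B crystallin, which glia make, fell from 189 ± 33.5 to 55.3 ± 17.1 CPM (-1.81 ± 0.16). Hexim1, the inhibitor of the elongation kinase P-TEFb, rose: it stood at 27.4, 26.5, 26.6 and 34.3 CPM and then at 55.6, 47.9, 58.0 and 87.3 CPM (1.10 ± 0.17, adjusted p = 0.00291). Hspa1b was no longer called without mouse 3 (adjusted p = 0.0548), nor Hspa1a without mouse 1, 2 or 3 (highest adjusted p = 0.176).

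Many chaperone genes of the endoplasmic reticulum fell. Of 23 unfolded protein response genes 13 were lower and none higher (median -0.19; 1 higher without mouse 4). Pdia4, a disulfide isomerase, stood at 71.0, 66.6, 66.9 and 72.2 CPM without transfection and at 41.0, 41.1, 41.0 and 41.4 CPM with the control ASO, without overlap (-0.75 ± 0.06, adjusted p = 3.98e-08). Hsp90b1 fell by 0.48 ± 0.07 and Manf by 0.44 ± 0.07 on the log2 scale, while Hspa5, the main chaperone of this compartment, was not called (-0.11 ± 0.05, adjusted p = 0.130). Of 24 cholesterol synthesis genes 9 were lower and none higher (median -0.16), with Cyp51 at -0.68 ± 0.08 and Sqle not called (0.05 ± 0.06). Of 26 NRF2 target genes 9 were lower and 1 was higher (median -0.07; 6 lower and none higher without the mouse as a term), with the exporter Abcc1 at -1.06 ± 0.08 and Nqo1 at -0.91 ± 0.14.

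Fatty acid and PPAR target genes had 7 higher and 8 lower of 37 (median 0.01; 4 higher without mouse 1, without mouse 2 and without the mouse as a term), with Angptl4, which blocks lipoprotein lipase, at -2.11 ± 0.18 and Acot1 at 1.81 ± 0.26. Acot1 resembles Acot2 (0.53 ± 0.07). Glycolysis and hypoxia genes had 6 higher and 3 lower of 30 (median 0.08; 3, 2 and 3 higher without mouse 2, 3 and 4, 5 lower without mouse 4, and 2 higher and 1 lower without the mouse as a term), with the neuronal enolase Eno2 at 0.26 ± 0.05 and the hypoxia factor Epas1 at -1.08 ± 0.15. Of 77 cytosolic ribosomal protein genes 25 were lower and none higher (median -0.17; 9, 16 and 15 lower without mouse 1, 2 and 3), with Rpl41 not called (-0.09 ± 0.06); processed pseudogenes make these counts uncertain. Of 14 mitochondrially encoded genes mt-Co3 (-0.37 ± 0.09) was the 1 called lower (median -0.30; 6 and 3 lower without mouse 1 and 4, none without mouse 2, without mouse 3 or without the mouse as a term). mt-Co3 was no longer called without mouse 2 or 3 (highest adjusted p = 0.0584). Epas1 (adjusted p = 0.307) and mt-Co3 (0.360) were not called without the mouse as a term.

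Among the other genes with large falls were Aif1l (-4.05 ± 0.17), Fam198b (-4.27 ± 0.21), Lpcat2, a lysophospholipid acyltransferase (-4.06 ± 0.30), Entpd1, the ATP-hydrolysing CD39 (-4.01 ± 0.35), Kirrel (-3.95 ± 0.36), and Metrn, a secreted factor of glia (-3.83 ± 0.25). Among the other genes with large rises were the mucin gene Muc2, Fam181b, the potassium channel subunit Kcnf1 (1.11 ± 0.14), the lysophosphatidic acid receptor Lpar3 (1.03 ± 0.09), the protocadherin Pcdh8 (0.92 ± 0.11), Arl4d (0.92 ± 0.13) and the imprinted retrotransposon-like gene Rtl1 (0.91 ± 0.12). Muc2 stood at 1.93, 3.60, 2.96 and 2.91 CPM and then at 8.56, 11.3, 5.12 and 6.43 CPM (1.45 ± 0.18). Fam181b stood at 3.46, 3.97, 3.31 and 4.36 CPM and then at 5.45, 10.1, 6.13 and 16.4 CPM, the spread being wider with the control ASO (1.24 ± 0.24). Rises in abundant genes with overlapping groups included Map1a (0.17 ± 0.05), Ndrg4 (0.16 ± 0.04) and Spock2 (0.19 ± 0.07). Map1a was no longer called without mouse 1, 3 or 4 (highest adjusted p = 0.0856), nor Ndrg4 without mouse 3 or 4 (highest adjusted p = 0.124) or Spock2 without mouse 1, 2 or 3 (highest adjusted p = 0.141). Map1a (adjusted p = 0.455), Ndrg4 (0.433) and Spock2 (0.166) were not called without the mouse as a term.

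The cultures given the GI-SINE ASO mix were compared with the same untransfected libraries, so the comparisons share their controls and their values are only set side by side. Col5a2 was at -4.16 ± 0.29 with the control ASO and at -6.25 ± 0.34 with the mix, and Lama2 at -5.29 ± 0.15 and -5.96 ± 0.16. Top2a was at -3.12 ± 0.22 and -4.41 ± 0.27. Among the genes that rose, Gbp2 was at 1.88 ± 0.16 and 0.51 ± 0.18, Gpnmb at 1.10 ± 0.19 and -0.64 ± 0.21, and Gdf15 at 1.23 ± 0.15 and 1.21 ± 0.15. The type I interferon list had a median of 0.38 with the control ASO and 0.01 with the mix, the nociceptor list 0.09 and 0.84, and the ribosomal list -0.17 and 0.31. Whether the mix differs from the control ASO in these genes was not tested here.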

How the data were processed

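Total RNA of 12 DRG cultures was sequenced as TruSeq Stranded paired-end libraries, per the labels' protocols. The deposited values are raw counts per gene; per the submitters' processing notes the authors used bcl2fastq, STAR and HTSeq with GRCm38 (mm10). The sources used here do not give the annotation release or the strand setting.

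Of 48795 gene IDs, 48349 matched GENCODE names for GRCm38. Counts were filtered with filterByExpr (minimum count 10), scaled by TMM and fitted with edgeR 4.0.16's quasi-likelihood model (R 4.3.3) on all 12 libraries, with group and mouse as terms. The mix libraries add to the spread and the mouse terms, and to which genes pass the filter: fitted alone, the 8 libraries had 16143 genes tested and 5995 called. Benjamini-Hochberg adjustment ran over all 16831 tested genes, and a gene was called at an adjusted p under 0.05. The design states that each replicate number is 1 mouse. Deviations from the group means correlated within mice 1 to 4 at 0.26, 0.175, 0.226 and 0.557. The highest correlations with an untransfected library of another mouse were 0.143, -0.00173, 0.176 and -0.212, so mouse 3 hardly separated. CPM are TMM-scaled, and mean ± SD is over 4 mice. DESeq2 1.42.0 and limma 3.58.1 were alternatives. Counting depth limits precision most for genes of a few CPM. Promoters come from RefSeq's GRCm38.p6 table.

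Members and gene lists were chosen with earlier results of these data known. Genes were named by rule: in each list up to 6 called genes with the smallest p and up to 2 uncalled genes of highest CPM, and over all genes of at least 5 CPM the 15 largest falls and rises in fold and the 8 largest in CPM. Named outside it, after their values were seen, were Adamts4, Adamts15, Apoe, Areg, C4a, Col5a3, Col7a1, Col9a3, Col20a1, Fgf2, Fgfbp3, H2-Q7, Ifit1, Igfbp2, Isg15, Lama1, Lama3, Mdk, Mmp3, Mmp24, Pcsk7, Pdgfra, Rnaseh1, S100b, Sox10 and Vegfa. The rule names 402 genes; 212 are in the text, and the other 190 are not reported here, left out by no fixed criterion and with their values known. Exons of 71 of the 238 genes in the text overlap another gene's on the opposite strand and may share reads with it.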

Additional observations from a re-analysis of the deposited data

Results flagged for a closer look

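Among the genes named above, 476 sets of 4 libraries (each gene in each of the 2 groups) were screened for a library that stood far from the other 3, by Dixon's ratio of its gap to the group's range against the 95% critical value for 4 samples. That ratio passes by chance in about 1 of 20 sets, and 65 passed. In 57 of these the distant library was that of mouse 4, in 5 that of mouse 2, in 2 that of mouse 1 and in 1 that of mouse 3. Acta2, smooth muscle actin, stood at 46.8 CPM in the untransfected library of mouse 4 and at 9.60 to 15.7 CPM in the other 3, and with the control ASO at 9.15 CPM against 0.266 to 0.884 CPM.

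The untransfected library of mouse 4 lay above the others, with the ratio in parentheses, for Acta2 (0.835), Bcl2 (0.832), Cavin1 (0.863), Col1a2 (0.919), Col4a1 (0.844), Cxcl10 (0.943), Epas1 (0.871) and F3 (0.971). It lay above them also for Hbegf (0.843), Hexim1 (0.878), Itgb4 (0.845), Lama2 (0.905), Lamc1 (0.880), Mbp (0.862), Myl9 (0.846) and Nfkbia (0.946). The same held for Prx (0.966), Sfpq (0.833), Smad3 (0.950), Tap1 (0.895), Tead1 (0.960), Tmem140 (0.852), Tnfrsf10b (0.921) and Yap1 (0.830).

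The untransfected library of mouse 4 lay below the others, with the ratio in parentheses, for Cd9 (0.896), Ndrg4 (0.838), Robo2 (0.930), Scn10a (0.843), Sv2c (0.905) and Timp2 (0.889).

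The control ASO library of mouse 4 lay above the others, with the ratio in parentheses, for Acta2 (0.930), Angptl4 (0.916), Atf3 (0.834), Bcl2 (0.843), Cdkn1c (0.870), Cnn2 (0.909), Cxcl10 (0.964) and Cxcr4 (0.926). It lay above them also for Dtx3l (0.964), Fbn1 (0.888), Gdf15 (0.905), Hbegf (0.850), Hspa1b (0.859), Il11 (0.907), Irgm1 (0.852) and Lama1 (0.956). The same held for Nfkbia (0.849), Prx (0.850), Ripk4 (0.954), Sfpq (0.937), Tagln (0.974), Tead1 (0.870) and Tnfrsf10b (0.968).

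The control ASO library of mouse 4 lay below the others, with the ratio in parentheses, for Ifi27 (0.897), Psap (0.909), Sdc3 (0.839) and mt-Co3 (0.856).

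Col20a1 in the control ASO library of mouse 1 stood at 3.15 CPM against 3.83 to 3.94 CPM in the other 3 (ratio 0.860). Fbln2 in the control ASO library of mouse 2 stood at 102 CPM against 38.3 to 45.5 CPM in the other 3 (ratio 0.887). Gldn in the control ASO library of mouse 2 stood at 35.9 CPM against 22.1 to 24.0 CPM in the other 3 (ratio 0.862). Metrn in the control ASO library of mouse 2 stood at 4.71 CPM against 1.98 to 2.44 CPM in the other 3 (ratio 0.832). Plxnb3 in the control ASO library of mouse 2 stood at 2.10 CPM against 0.488 to 0.618 CPM in the other 3 (ratio 0.919). Rpl41 in the control ASO library of mouse 1 stood at 139 CPM against 157 to 160 CPM in the other 3 (ratio 0.869). Rrm2 in the control ASO library of mouse 2 stood at 1.60 CPM against 1.17 to 1.24 CPM in the other 3 (ratio 0.836). S100b in the untransfected library of mouse 3 stood at 85.5 CPM against 67.6 to 70.6 CPM in the other 3 (ratio 0.833).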

How the results depend on the processing

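Counts of called genes moved with the setting, and so did the balance of rises and falls. The share of called genes that were higher was 43.5% in the fit used above. It ran from 29.6% without mouse 3 to 56.3% with length and GC trends removed. Without the replicate block (the mouse term), 2391 genes were called, 816 of them higher. With 1 mouse left out, called genes numbered 2540 to 3946, higher genes 752 to 1507, lower genes 1750 to 2439, and genes higher by at least 2-fold 86 to 151. With only the 8 libraries fitted, 2729 were higher, and with length and GC trends removed (chosen after seeing the data) 2740. An adjusted p under 0.01 left 2388, 763 of them higher. A stricter filter, which tests fewer genes, left 466 changed by at least 2-fold, 30 of them higher. Plxnc1 (0.15), Robo2 (0.18) and Sv2c (0.17) turned from near 0 to called rises on the log2 scale with length and GC trends removed; the cause was not tested.

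Of 187 called genes among the 238 named, 129 kept their call in all 14 settings tried for genes. Most of them were named for the smallest p or the largest changes, so this count does not describe called genes in general. Without the replicate block 46 lost it, with 1 mouse left out 11 to 24, and with library size scaling 0. Of the 51 named genes not called, 23 were called in at least 1 setting, 17 of them with only the 8 libraries fitted, 9 with length and GC trends removed and 5 without mouse 4. C4a, Col6a2, Mcm7, Nfkbia and Sdc3 were called in 3 to 6 settings, with lowest adjusted p of 0.00633, 0.00367, 0.000518, 7.6e-05 and 4.45e-07, and Fgf1 in 2 (0.00151). In those settings C4a, Mcm7, Nfkbia and Fgf1 were called higher, and Col6a2 and Sdc3 lower. The control ASO's sequence, a transfection without ASO and the cells' numbers are not among the data used here.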
